A study of Danio rerio with 12 samples.

Results

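Whole kidney marrow of adult zebrafish that lack both prkdc and il2rga was set beside that of zebrafish that lack prkdc alone, which asks what the loss of il2rga adds where prkdc is already mutated. The comparison takes the 3 double mutant and the 3 prkdc mutant libraries, 6 of the 12 bulk poly(A) libraries in the series, chosen by the genotype in their labels. The other 6 libraries, 3 from il2rga mutants and 3 from wild type fish, entered the same model and show the effect of il2rga loss where prkdc is intact. Both groups compared carry the prkdc mutation, so the fold changes below do not show what prkdc loss does by itself. The series' design text gives the alleles of its mutant fish as prkdc(D3612fs) and il2rga(Y91fs), where fs stands for a frameshift, while the labels of these libraries name the genes alone. Each library came from the dissected kidney of 1 animal. The age in months, sex, strain and date of dissection are not given in the labels used here.

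The product of il2rga is the common gamma chain, a receptor subunit that several interleukins share. It pairs with chains specific to each cytokine, such as the products of il2rb and il7r, and signals through the kinases Jak1 and Jak3 to Stat proteins; natural killer (NK) cells and many T cells need these signals in mammals. The gene prkdc encodes the catalytic part of DNA-PK, a kinase used in joining broken DNA ends, which B and T cells need to assemble their antigen receptor genes by V(D)J recombination. Cytotoxic lymphocytes without rearranged receptors do not need that step. The kidney marrow is the main site of blood formation in adult zebrafish and lies between the nephrons, so that a library holds RNA of blood, tubules, vessels and the steroid-producing interrenal cells.

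Total counts were 9220273, 9909915 and 6854963 in double mutants 1 to 3, against 8415980, 9465242 and 7865665 in prkdc mutants 1 to 3. Levels are given as CPM, each count divided by the TMM-scaled library size, and a gene was called when its adjusted p was below 0.05 in edgeR's quasi-likelihood test with Benjamini-Hochberg adjustment over the 18370 genes tested. Fold changes are log2 values of double over prkdc mutants, with an approximate standard error (SE) after them. This SE is the size of the fold change divided by the square root of the F statistic of the quasi-likelihood test. Liver plasma protein genes took a larger share of counts in double mutants than in prkdc mutants. Egg coat and oocyte genes did so in double mutants 1 and 2. A list of 42 liver plasma protein genes, 40 of them tested, took 2.11%, 0.731% and 0.413% of all counts in double mutants 1 to 3, against 0.177%, 0.316% and 0.204% in prkdc mutants 1 to 3. Egg coat and oocyte genes took 0.765%, 0.204% and 0.00382% in double mutants 1 to 3, against 0.00663%, 0.00212% and 0.00161% in prkdc mutants 1 to 3. Results were therefore also computed without double mutants 1 and 2, the libraries rich in egg coat transcripts. Double mutant 3 was then the lone library of its group and was assumed to vary like the others.

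Loss of il2rga on the prkdc mutant background was accompanied by 2717 called genes, 14.8% of those tested. Of these, 1456 genes (7.93%) rose and 1261 (6.86%) fell in double mutants. Over all tested genes the fold changes had a log2 median of 0.03. Among the called genes, 2538 had 3 double mutant libraries wholly on one side of the 3 prkdc mutant libraries. Over all genes, 16.0% stood apart in this way with higher values in double mutants and 17.2% with lower values. The number called depended on single libraries: it was 382 without double mutant 1, and 1344, 829 and 400 without prkdc mutants 1, 2 and 3. In the fit of the 6 libraries alone it was 236. Without double mutants 1 and 2, edgeR called 0 genes, with 4534 at an unadjusted p below 0.05.

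The targeted gene was low in every double mutant library. Levels of il2rga were 2.05, 4.0 and 2.29 CPM in double mutants 1 to 3, against 35.6, 34.1 and 42.2 CPM in prkdc mutants 1 to 3. All 3 double mutants lay below the lowest prkdc mutant, and the log2 fold change was -3.73 ± 0.44 (adjusted p = 0.00465). The call held under each of the 12 fits that left out 1 library. Reads of prkdc do not mark its allele, since both groups carry the mutation: levels were 17.8, 18.7 and 19.2 CPM in double mutants and 23.3, 16 and 22.1 CPM in prkdc mutants, and the groups overlapped.

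Of 26 tested genes of the common gamma chain receptors and of JAK-STAT signalling, 4 fell, which is 15.4% of the list beside 6.86% of all genes, and 1 rose. The 4 include il2rga itself, whose mutation defines the comparison, so this share is raised by the design. The list's median was -0.14. Apart from il2rga, the falling members were il2rb, tyk2 and stat6. Expression of il2rb, the chain that pairs with the gamma chain for IL2 and IL15, was 4.77, 7.3 and 7.33 CPM in double mutants 1 to 3, against 28.4, 15.6 and 19.8 CPM in prkdc mutants 1 to 3. The highest double mutant value stayed below the lowest prkdc mutant value, with a log2 fold change of -1.72 ± 0.47 (adjusted p = 0.0351, edgeR). The kinase gene tyk2 was at 18.8, 27.6 and 22.8 CPM in double mutants and 43.5, 68.3 and 62.1 CPM in prkdc mutants, with no overlap (-1.33 ± 0.26, adjusted p = 0.014). The gene stat6, a mediator of IL4 signals, was at 39.9, 62.1 and 33.3 CPM in double mutants and 64.2, 123.1 and 77.9 CPM in prkdc mutants (-0.97 ± 0.29, adjusted p = 0.0487). By contrast cishb, which encodes a feedback inhibitor of cytokine signalling induced through Stat5, stood at 22.8, 24.6 and 5.5 CPM in double mutants 1 to 3, against 2.98, 4.47 and 4.8 CPM in prkdc mutants 1 to 3. It was higher in all 3 double mutants, though double mutant 3 was close to the prkdc mutants (2.11 ± 0.63, adjusted p = 0.0463). The kinase gene jak3, which binds the gamma chain, was not called and its libraries overlapped (33.1, 43.3 and 21.2 CPM in double mutants and 35.1, 35.1 and 44.6 CPM in prkdc mutants). For il7r, the partner chain for IL7, the groups overlapped as well (3.52, 1.6 and 0.153 CPM in double mutants and 2.4, 4.15 and 1.44 CPM in prkdc mutants). In bulk tissue, a fall of a transcript through fewer cells of a type cannot be told apart from less RNA per cell, here and in the results that follow. The 4 falls became 1 without double mutant 1, and 2 and 1 without prkdc mutants 2 and 3, while 4 members rose without double mutant 3.

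Several genes of cytotoxic T and NK cells fell in double mutants. Of 42 list genes found in the table, 14 passed the filter on low counts, and 7 of these fell (50.0% of the 14, beside 6.86% of all genes) while 1 rose. In 10 of the 14, all 3 double mutant libraries lay below all 3 prkdc mutant libraries, beside 17.2% of all genes. The median log2 fold change was -2.89, or -1.94 with the 2 genes at 0 counts in double mutants set to their bound. Since a gene could pass the filter through its level in prkdc mutants, wild type or il2rga mutants, these shares describe the tested genes only. With no filter on low counts, 39 genes of the list were tested, with 6 falls, 1 rise and a median of -1.20. Reads shared by near-identical copies in the perforin, NK-lysin, chemokine and MHC families make values of single members less certain.

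The T-box factor gene tbx21, a master regulator of type 1 and cytotoxic lymphocytes, had 0.227, 0.50 and 0.916 CPM in double mutants 1 to 3, against 5.38, 4.04 and 4.68 CPM in prkdc mutants 1 to 3. Even the highest double mutant was far below the lowest prkdc mutant, and the log2 fold change was -3.11 ± 0.55 (adjusted p = 0.01, edgeR). Among the perforin genes, which encode pore-forming proteins of cytotoxic granules, prf1.9 stood at 0.114, 0.20 and 0 CPM in double mutants 1 to 3, against 6.18, 4.58 and 4.68 CPM in prkdc mutants 1 to 3. Those are 3 counts in all in double mutants and 135 in prkdc mutants, a ratio of 43.5 with a counting interval of 14.6 to 213 (95%), and the difference was called (adjusted p = 0.00679). Its paralogue prf1.1 had 0 counts in all 3 double mutants and 29 in prkdc mutants, so it was at least 9.34-fold lower against a floor of 3 counts over the group (adjusted p = 0.0184). The paralogue prf1.6 went the other way: it had 2.73, 2.2 and 0.305 CPM in double mutants and 0, 0.327 and 0.24 CPM in prkdc mutants, and was called as higher with overlapping libraries (adjusted p = 0.0365).

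Of the NK-lysin genes, which encode antimicrobial peptides of cytotoxic lymphocyte granules, 3 fell. The level of nkl.2 was 0.227, 0.10 and 0.153 CPM in double mutants 1 to 3, against 3.32, 5.35 and 3.0 CPM in prkdc mutants 1 to 3. No double mutant reached 1 CPM and no prkdc mutant was below it (-4.49 ± 0.73, adjusted p = 0.00805, edgeR). For nkl.3, levels were 0.227, 2.5 and 2.6 CPM in double mutants 1 to 3, against 25.2, 10.8 and 11.4 CPM in prkdc mutants 1 to 3, and double mutant 1 was the lowest by far (-3.15 ± 0.73, adjusted p = 0.0229). The gene nkl.4 had 0.568, 1.0 and 3.97 CPM in double mutants 1 to 3, against 18.7, 8.4 and 7.67 CPM in prkdc mutants 1 to 3, with double mutant 3 nearest to the prkdc mutants (-2.68 ± 0.82, adjusted p = 0.0494). The death ligand gene faslg had 1 count in double mutants and 24 in prkdc mutants, a ratio of 23.2 (95% counting interval 3.78 to 953, adjusted p = 0.0299). The granzyme gene gzma, a granule protease, was at 0.568, 0.50 and 0.458 CPM in double mutants and 0.801, 0.655 and 0.72 CPM in prkdc mutants, beside 0.21, 0.214 and 0.213 CPM in il2rga mutants and 2.85, 4.14 and 7.64 CPM in wild type, and it was not called between double and prkdc mutants (-0.49 ± 0.49, adjusted p = 0.51). The count of 7 falls was 3, 4, 4 and 3 without double mutant 1 and without prkdc mutants 1, 2 and 3, and the list's median was -2.33 without double mutants 1 and 2. The calls of prf1.9, nkl.2 and tbx21 held in all 12 fits that left out 1 library.

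Of 26 T cell genes tested, 8 fell in double mutants (30.8%, beside 6.86% of all genes) and 18 were not called. The list's median was -1.24. Fold changes were negative for 21 and positive for 5, up to 2.44. In 15 of the 26, all double mutant libraries lay below all prkdc mutant ones, beside 17.2% of all genes. In 1 they lay above, beside 16.0% of all genes. With DESeq2, with voom and without double mutant 3, 1 member was called higher in each case. A gene could pass the filter through its level in any group, so these shares describe the tested genes only. In the 6 libraries alone, 18 genes of the list were tested, with a median of -1.19. The Tec-family kinase gene txk, which acts below the T cell receptor, was at 0.114, 0.30 and 0.305 CPM in double mutants 1 to 3, against 3.43, 2.73 and 2.52 CPM in prkdc mutants 1 to 3. Its libraries were far apart, with a log2 fold change of -3.52 ± 0.54 (adjusted p = 0.00681), and the call held without any 1 of the 12 libraries. The T cell receptor beta constant gene trbc1 had 0, 0.30 and 0 CPM in double mutants 1 to 3, against 2.4, 4.15 and 3.24 CPM in prkdc mutants 1 to 3. Those are 3 and 86 counts in double and prkdc mutants, a ratio of 27.7 with a 95% counting interval of 9.16 to 137 (adjusted p = 0.0126, edgeR).

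Among genes of T cell receptor signalling, lck, which encodes the Src-family kinase that starts the signal, was at 1.25, 0.20 and 0.916 CPM in double mutants and 5.04, 5.02 and 3.6 CPM in prkdc mutants (-2.53 ± 0.69, adjusted p = 0.0361). The adaptor gene lat was at 0.568, 0.60 and 0.153 CPM in double mutants and 1.14, 2.29 and 1.8 CPM in prkdc mutants (-1.90 ± 0.56, adjusted p = 0.0455). Both genes were lower in all 3 double mutants. Of the transcription factors, tox, needed in T cell development, was at 3.07, 5.6 and 3.21 CPM in double mutants and 8.58, 30.3 and 11.4 CPM in prkdc mutants (-2.07 ± 0.47, adjusted p = 0.0216), with prkdc mutant 2 well above the other libraries. The CD8 lineage factor gene runx3 fell by 1.32 on the log2 scale (SE 0.40, adjusted p = 0.0479). The remaining called members were themis, a thymocyte selection gene (-3.02), and its relative themis2 (-1.11).

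Other T cell genes were already near the bottom in prkdc mutants. The homing receptor gene ccr7 was at 0.341, 0.60 and 0.153 CPM in double mutants and 0.801, 1.09 and 0.72 CPM in prkdc mutants, beside 0.21, 0.641 and 0.425 CPM in il2rga mutants and 14.7, 8.89 and 19.7 CPM in wild type, and was not called in double over prkdc mutants (-1.16 ± 0.54, adjusted p = 0.163). Likewise tcf7, a factor of naive and developing T cells, was at 1.02, 0.80 and 0.764 CPM in double mutants and 0.572, 0.764 and 0.72 CPM in prkdc mutants, beside 1.26, 0.214 and 0.425 CPM in il2rga mutants and 9.64, 6.46 and 11.9 CPM in wild type. The T cell coreceptor gene cd8a had 0 counts in double mutants and 9 in prkdc mutants, and was not called. With single libraries left out the 8 falls became 2 without double mutant 1, 5 without double mutant 3, and 5, 3 and 3 without prkdc mutants 1, 2 and 3. Without double mutants 1 and 2 the list's median was -2.30.

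**Figure D1:**
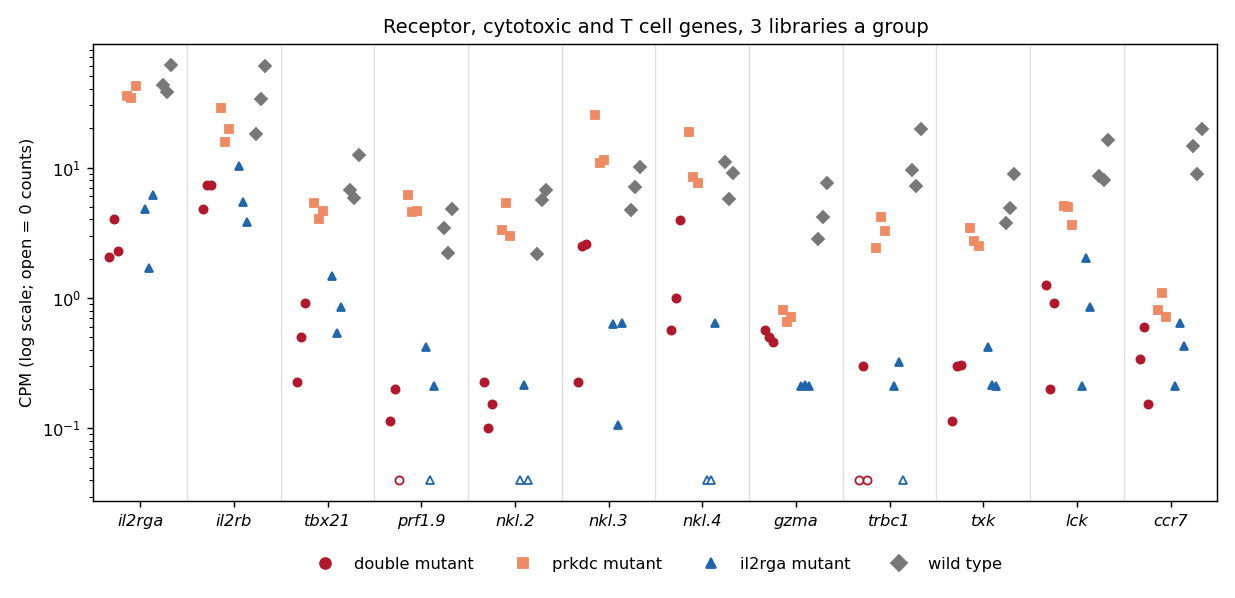
Levels of receptor, cytotoxic and T cell genes in CPM on a log axis, 1 point per library and 3 libraries a group, with libraries at 0 counts drawn as open symbols at the foot of the axis. For il2rga, il2rb, tbx21, prf1.9, nkl.2, nkl.3, nkl.4, trbc1, txk and lck the double mutants lie below the prkdc mutants, while gzma and ccr7 are low in both of these groups.

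Genes of chemokine ligands, which draw leukocytes, mostly fell where they were called. Of 29 tested, 5 fell (17.2% of the list, beside 6.86% of all genes) and 1 rose, with a median of -0.01. The largest fall was that of cxcl32b.1, at 0, 0.10 and 0 CPM in double mutants 1 to 3, against 1.6, 1.85 and 3.12 CPM in prkdc mutants 1 to 3, which is 1 count against 57 (ratio 55.1, 95% counting interval 9.49 to 2212, adjusted p = 0.0115, edgeR). The CC chemokine gene ccl36.1 had 1.02, 0.80 and 0.764 CPM in double mutants 1 to 3, against 18.7, 15.8 and 14.9 CPM in prkdc mutants 1 to 3. It was more than 10 times higher in every prkdc mutant than in any double mutant (-4.23 ± 0.87, adjusted p = 0.0159), while the other groups held 0, 0.214 and 0.638 CPM in il2rga mutants and 5.41, 0.487 and 0.646 CPM in wild type. The CC genes that also fell were ccl34b.4 (-3.50), ccl33.3 (-2.66) and ccl35.1 (-2.08). Only ccl34a.4 rose among the tested members, with 4.21, 16.8 and 10.5 CPM in double mutants and 1.37, 0.982 and 3.48 CPM in prkdc mutants (2.43 ± 0.62, adjusted p = 0.0284). Without double mutant 1, without double mutant 2, and without prkdc mutants 1 and 3, the 5 falls became 1, 3, 3 and 1.

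Of 11 B cell genes tested, edgeR called 0, with 3 at an unadjusted p below 0.05, DESeq2 0 and limma voom 1. The most abundant member, the kinase gene btk, which myeloid cells also express, was at 52.2, 61.2 and 65.2 CPM in double mutants and 70.0, 37.2 and 65.7 CPM in prkdc mutants, with overlapping libraries. Of 4 immunoglobulin-domain receptor genes of the dicp family edgeR, DESeq2 and voom called 0, with 0 at an unadjusted p below 0.05; dicp3.1 was at 28.3, 30.8 and 19.2 CPM in double mutants and 36.7, 23.9 and 51.6 CPM in prkdc mutants. The receptor signalling gene cd79a was at 0.682, 0.40 and 1.07 CPM in double mutants and 1.49, 0.327 and 1.2 CPM in prkdc mutants, beside 16.2, 6.94 and 25.1 CPM in il2rga mutants and 17.9, 5.12 and 18.3 CPM in wild type. The B cell factor gene pax5 was at 0.341, 0.10 and 0.458 CPM in double mutants and 0.572, 0.218 and 0.48 CPM in prkdc mutants, beside 10.7, 2.56 and 12.3 CPM in il2rga mutants and 6.39, 4.51 and 18.4 CPM in wild type. Immunoglobulin mu, ighm, was lower in each double mutant than in each prkdc mutant (5.8, 11 and 8.71 CPM in double mutants and 12.7, 12.5 and 18.7 CPM in prkdc mutants) but was not called (-0.78 ± 0.73, adjusted p = 0.484). Of 9 immunoglobulin genes tested, igl4c1 alone was called: 67 counts in double mutants, most of them in double mutant 1, and 3 in prkdc mutants (ratio 23.1, 95% counting interval 7.58 to 115, adjusted p = 0.0356, edgeR). That is 11.1% of the list, beside 7.93% of all genes. The plasma cell factor gene irf4b had 3 counts in double mutants and 22 in prkdc mutants, a ratio of 7.08 (95% counting interval 2.13 to 37, adjusted p = 0.0326, edgeR). It was the 1 called of 3 plasma cell genes tested (33.3%, beside 6.86% of all genes). Of 5 genes of recombination and early lymphoid cells, ikzf2, an Ikaros-family factor, fell (1.36, 2.4 and 3.21 CPM in double mutants and 8.93, 4.8 and 4.56 CPM in prkdc mutants; -1.40 ± 0.41, adjusted p = 0.0434), and so did notch3 (-1.0 ± 0.30, adjusted p = 0.0488). These 2 falls were 40.0% of the list, beside 6.86% of all genes. The recombinase gene rag1 was at 14.4, 11.3 and 43.2 CPM in double mutants and 49.2, 21.1 and 41.9 CPM in prkdc mutants, with overlapping libraries. Of 12 genes of DNA end joining, the route in which prkdc acts, xrcc6, which encodes the Ku70 subunit, was the 1 called member (0.64 ± 0.17, adjusted p = 0.0361, edgeR). This rise was 8.33% of the list, beside 7.93% of all genes.

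A block of class I antigen processing genes was at or near 0 counts in all 3 prkdc mutants and present in all 3 double mutants. The immunoproteasome gene psmb12 had 26, 27.2 and 15 CPM in double mutants 1 to 3, against 0, 0 and 0 CPM in prkdc mutants 1 to 3. With 0 counts in prkdc mutants it was at least 207-fold higher in double mutants (adjusted p = 0.0284, edgeR). The same pattern held for psmb13a (27.7, 35.6 and 13.7 CPM in double mutants and 0, 0 and 0 CPM in prkdc mutants; at least 238-fold, adjusted p = 0.0319), psmb8 (59.3, 78.4 and 19.4 CPM in double mutants and 0, 0 and 0 CPM in prkdc mutants; at least 495-fold, adjusted p = 0.025) and the class I heavy chain gene mhc1uca (19.5, 35.7 and 2.44 CPM in double mutants and 0, 0 and 0 CPM in prkdc mutants; at least 188-fold, adjusted p = 0.0467). The peptide transporter gene tap2a was at 11.7, 16.8 and 5.19 CPM in double mutants and 0, 0.327 and 0.24 CPM in prkdc mutants (5.78 ± 1.44, adjusted p = 0.0288). Another heavy chain gene, mhc1uba, was at 335, 763 and 2.9 CPM in double mutants and 3.09, 4.25 and 2.88 CPM in prkdc mutants, so double mutants 1 and 2 were high and double mutant 3 lay among the prkdc mutants. It was called as higher although its libraries overlapped.

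For psmb12, psmb13a and mhc1uca, the levels did not follow the il2rga genotype over the whole series. The gene psmb12 was at 15.5, 29.6 and 64.5 CPM in il2rga mutants and 23.8, 15 and 0 CPM in wild type, and psmb13a at 18.5, 34.6 and 65.9 CPM in il2rga mutants and 40.2, 17.5 and 0 CPM in wild type. For mhc1uca the values were 16.2, 25.8 and 34.5 CPM in il2rga mutants and 44.1, 16.7 and 0 CPM in wild type. All 3 il2rga mutants thus carried the transcripts, wild type 1 and 2 did so too, and wild type 3 was at 0 like the prkdc mutants. The gene mhc1uba differed from these, at 295, 366 and 649 CPM in il2rga mutants and 5.6, 3.9 and 4.41 CPM in wild type. It did not follow the il2rga genotype throughout either, since double mutant 3 lay among the prkdc mutants. In the RefSeq gene table (GRCz12tu assembly, which is not the build of the counts) mhc1uba, psmb13a, psmb8a, psmb12, psmb9a and tap2a are consecutive genes on chromosome 19. As background, the zebrafish core MHC region occurs as haplotypes that differ in which of these genes they hold; the haplotypes of the animals are not given in the labels, and their part in the result was not tested. The 5 rises of the class I list were those of psmb12, psmb13a, mhc1uca, tap2a and mhc1uba, the last with overlapping libraries. The gene psmb8 was not on that list. These 5 rises became 3 without double mutant 2 and 0 without double mutant 1 or prkdc mutants 1, 2 or 3.

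Members of the class I pathway outside that block behaved otherwise. The immunoproteasome gene psmb10 was at 45.2, 28.9 and 25.4 CPM in double mutants and 39.8, 44.4 and 35.5 CPM in prkdc mutants and the transporter gene tap2t at 22.2, 25.1 and 22.8 CPM in double mutants and 25.5, 20.6 and 24.1 CPM in prkdc mutants, with overlapping libraries and no call. Transactivator gene nlrc5, which drives class I genes, fell (6.82, 14.1 and 13.3 CPM in double mutants and 28.4, 31.3 and 30.6 CPM in prkdc mutants; -1.40 ± 0.35, adjusted p = 0.0269). So did b2ml, a beta-2-microglobulin-like gene (-1.0 ± 0.27, adjusted p = 0.0356), and mhc1zaa, with overlapping libraries (-1.42 ± 0.42, adjusted p = 0.0454). Over the 27 tested members of the class I list, 5 rose (18.5%, beside 7.93% of all genes) and 3 fell (11.1%, beside 6.86%), with a median of 0.07; 0 fell without double mutant 1, prkdc mutant 2 or prkdc mutant 3, and 1 without double mutant 3 or wild type 3. The lectin-like receptor genes illr1 and illr3, which lie on chromosome 19 as well, also rose. The level of illr3 was 12.4, 13.6 and 9.32 CPM in double mutants 1 to 3, against 0, 0.327 and 0 CPM in prkdc mutants 1 to 3; it was 3 counts in all in prkdc mutants, a ratio of 106 (95% counting interval 35.8 to 515, adjusted p = 0.00635), and its call held in all 12 fits that left out 1 library. For illr1, prkdc mutants had 0 counts and double mutants at least 76.6-fold more (adjusted p = 0.0425), but only 1 of 3 wild type libraries held it.

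**Figure D2:**
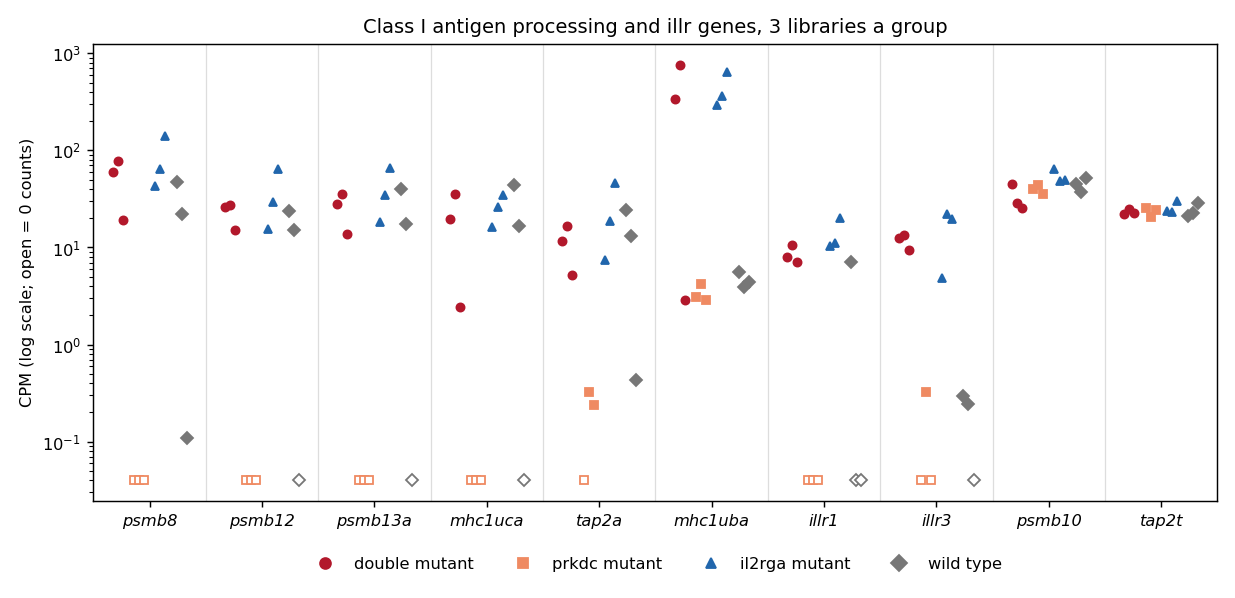
Levels of class I antigen processing genes and of illr1 and illr3 in CPM on a log axis, 1 point per library, with libraries at 0 counts drawn as open symbols at the foot of the axis. The prkdc mutants are at 0 for psmb8, psmb12, psmb13a and mhc1uca and so is wild type 3 for psmb12, psmb13a and mhc1uca, while psmb10 and tap2t are at like levels in all 4 groups.

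Genes of class II presentation, the route used by B cells, macrophages and dendritic cells, had 2 falls among 11 tested (18.2%, beside 6.86% of all genes) and a median of -1.28. With voom the median was -0.39. The list was split, with 8 negative and 3 positive fold changes. All double mutant libraries lay below all prkdc mutant ones in 5 of the 11, beside 17.2% of all genes. They lay above in 3, beside 16.0%. The invariant chain gene cd74a was at 166, 156 and 256 CPM in double mutants 1 to 3, against 653, 889 and 887 CPM in prkdc mutants 1 to 3. The highest double mutant held well under the lowest prkdc mutant, with a log2 fold change of -2.07 ± 0.42 (adjusted p = 0.0153, edgeR). The class II alpha chain gene mhc2daa was at 84.9, 124 and 128 CPM in double mutants and 242, 257 and 327 CPM in prkdc mutants (-1.29 ± 0.32, adjusted p = 0.0266). The 2 falls became 0 without double mutant 1 or prkdc mutant 3, 1 without prkdc mutant 2 and 4 without il2rga mutant 3.

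Myeloid, red cell and progenitor lists held few calls, mostly at shares near the 6.86% and 7.93% of all genes called lower and higher. Of 21 neutrophil genes, 2 fell (9.52%): the membrane protease gene mmp25b (-1.31 ± 0.32, adjusted p = 0.0255) and csf3r, the receptor for granulocyte colony-stimulating factor (-1.15 ± 0.35, adjusted p = 0.0481). Of 25 macrophage genes, the receptor gene csf1rb fell (-0.74 ± 0.19, adjusted p = 0.0279) and 1 of the genes that share the symbol mfap4 rose. The Fc receptor adaptor gene fcer1g, which NK cells and mast cells both use in mammals, was at 6.14, 9.4 and 4.28 CPM in double mutants and 22.8, 18.3 and 21.3 CPM in prkdc mutants (-1.65 ± 0.31, adjusted p = 0.0122). It was the 1 called of 6 mast cell and eosinophil genes (16.7%, beside 6.86% of all genes). Erythroid genes had 1 fall in 21, klf3 (-0.72), and progenitor genes 1 fall in 12, hlfa (-1.01). Of 17 inflammatory genes tested, 3 rose (17.6%, beside 7.93% of all genes) and 1 fell. Of these, pycard, which encodes the inflammasome adaptor Asc, rose (26.8, 41.9 and 33.1 CPM in double mutants and 14.4, 7.53 and 11.8 CPM in prkdc mutants; 1.60 ± 0.26, adjusted p = 0.00831), and tnfaip3, an inhibitor of NF-kB signalling, fell (-1.10 ± 0.29, adjusted p = 0.0325). The other rises rested on few counts: hamp, which encodes the iron hormone hepcidin of liver, had 71 and 1 counts in double and prkdc mutants (ratio 73.5, 95% counting interval 12.8 to 2944). The cytokine gene il11a was at 2.27, 3.3 and 0.153 CPM in double mutants and 0.229, 0.109 and 0.12 CPM in prkdc mutants, high in double mutants 1 and 2 alone, with overlapping libraries. Of 23 interferon-stimulated genes irf9, a factor of that response, rose (0.74 ± 0.22), and of 19 immediate early and heat shock genes klf2a fell (-1.03 ± 0.26) and btg2 rose. These were 4.35% of the first list and 5.26% each way of the second, beside 7.93% higher and 6.86% lower of all genes.

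Of 32 genes of DNA replication and mitosis tested, 17 rose in double mutants (53.1%, beside 7.93% of all genes), with a median of 1.47. The mean log2 CPM of the list was 7.04, 5.88 and 6.66 in double mutants 1 to 3, against 5.47, 3.82 and 4.85 in prkdc mutants 1 to 3. In il2rga mutants it was 5.88, 6.09 and 5.99, and in wild type 5.16, 5.86 and 5.73, so prkdc mutants were the lowest group and prkdc mutant 2 the lowest library. The mitotic kinase gene aurka was at 98.4, 31.1 and 48 CPM in double mutants 1 to 3, against 9.16, 2.07 and 4.32 CPM in prkdc mutants 1 to 3. All double mutants were above all prkdc mutants (3.51 ± 0.59, adjusted p = 0.00874), and the call held in all 12 fits without 1 library. The gene cdc20, an activator of the anaphase-promoting complex, was at 162, 53.5 and 95 CPM in double mutants 1 to 3, against 24.2, 5.35 and 11.3 CPM in prkdc mutants 1 to 3 (2.93 ± 0.53, adjusted p = 0.0107). Cyclin B1, ccnb1, was at 292, 94.3 and 153 CPM in double mutants and 39.1, 9.93 and 22.4 CPM in prkdc mutants (2.91 ± 0.53, adjusted p = 0.0109), and plk1, another mitotic kinase, rose by a like amount (2.74 ± 0.50), as did the chromosome passenger kinase gene aurkb (2.36 ± 0.41). The proliferation marker mki67 was not called, with overlapping libraries (321, 185 and 493 CPM in double mutants and 295, 98.5 and 230.0 CPM in prkdc mutants).

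The cell cycle calls varied with the library set: 6 without double mutant 1, 7 and 2 without prkdc mutants 2 and 3, and 0 with edgeR in the 6 libraries alone. Double mutant 1, the library richest in egg coat transcripts, was also the highest for this list, and the part of those transcripts in the result was not tested. Without double mutants 1 and 2 the list's median was 1.89.

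Most nuclear genes for oxidative phosphorylation rose in double mutants; they encode subunits and assembly factors of the mitochondrial respiratory chain and ATP synthase. Of 97 tested, 88 rose (90.7%, beside 7.93% of all genes). In 94 of the 97, all double mutant libraries lay above all prkdc mutant ones, beside 16.0% of all genes. The list was drawn up after these genes had been seen among the rises. The changes were modest in size, with a median of 0.98. The rises were spread over the complexes: 39 of 41 subunit genes of complex I, 3 of 4 of complex II, 9 of 9 of complex III, 15 of 18 genes of complex IV, 18 of 18 of ATP synthase and 4 of 7 complex I assembly factors.

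The ATP synthase gene atp5mj was at 198, 186 and 187 CPM in double mutants 1 to 3, against 78.4, 67.2 and 60.7 CPM in prkdc mutants 1 to 3. Libraries within a group differed by far less than the groups did (1.47 ± 0.16, adjusted p = 0.00419, edgeR). The complex I gene ndufs7 was at 179, 169 and 171 CPM in double mutants 1 to 3, against 75.5, 79.5 and 64.9 CPM in prkdc mutants 1 to 3 (1.24 ± 0.15, adjusted p = 0.00465). The complex III gene uqcr10 was at 198, 170.1 and 186 CPM in double mutants and 81.4, 77.1 and 63.4 CPM in prkdc mutants (1.32 ± 0.17, adjusted p = 0.00471). The complex I gene ndufb9 (1.22 ± 0.15) and the ATP synthase gene atp5mc1 (1.45 ± 0.19) rose by like amounts. Of the 13 subunits that the mitochondrial genome itself encodes, 1, mt-atp8, rose (0.69 ± 0.20, adjusted p = 0.0405, edgeR). That is 7.69% of the list, beside 7.93% of all genes, and the median was 0.19. Fold changes were positive for 11 and negative for 2. In 4 of the 13, all double mutant libraries lay above all prkdc mutant ones, beside 16.0% of all genes. The complex IV subunit gene mt-co1 was at 7333, 8049 and 7590.2 CPM in double mutants and 6709, 7898 and 5909 CPM in prkdc mutants, with overlapping libraries.

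The list of nuclear genes had a mean log2 CPM of 6.99, 6.98 and 6.91 in double mutants, against 6.06, 6.10 and 5.79 in prkdc mutants. In il2rga mutants it was 7.04, 6.85 and 6.89, and in wild type 6.03, 6.06 and 5.92. Both groups without il2rga were thus about 1 log2 unit above both groups with it. Of the 97 genes, 76 rose in il2rga mutants over wild type as well, where 2.22% of all genes rose. The 88 rises became 55 without double mutant 1, 39 without prkdc mutant 3 and 15 in the fit of the 6 libraries alone. The median in those fits was 0.97, 0.87 and 1.00, and it was 0.91 without double mutants 1 and 2.

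**Figure D3:**
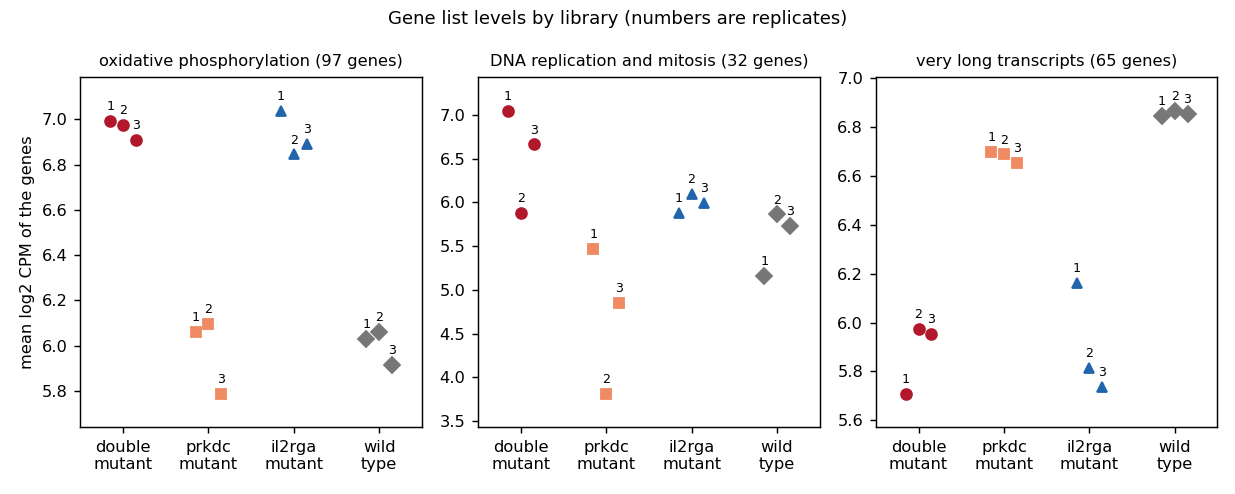
Mean log2 CPM of the genes of 3 lists in each library, with numbers for replicates. Both groups without il2rga are high for oxidative phosphorylation and low for very long transcripts, and prkdc mutants are low for DNA replication and mitosis.

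Of 65 very long transcripts tested, 28 fell in double mutants (43.1%, beside 6.86% of all genes) and 1 rose, the kinesin gene cenpe. The median was -0.79. In 49 of the 65, all double mutant libraries lay below all prkdc mutant ones, beside 17.2% of all genes. The list, written with earlier results in view, joins genes by transcript length and not by function. The cytoskeletal linker gene pleca was at 24.9, 34.5 and 25.2 CPM in double mutants 1 to 3, against 79.9, 108 and 81.7 CPM in prkdc mutants 1 to 3 (-1.67 ± 0.19, adjusted p = 0.00434, edgeR). The gene nbeal2, needed for granules of platelets in mammals, was at 8.98, 16.5 and 11.9 CPM in double mutants 1 to 3, against 66.7, 54.1 and 71.4 CPM in prkdc mutants 1 to 3 (-2.36 ± 0.31, adjusted p = 0.00471). Neither pair of groups overlapped. Other falling members were golgb1 of the Golgi (-1.33), the nuclear envelope gene syne1b (-1.44) and ahnak (-1.80). The list's mean log2 CPM was 5.71, 5.97 and 5.95 in double mutants, against 6.70, 6.69 and 6.65 in prkdc mutants, and it was 6.16, 5.81 and 5.74 in il2rga mutants, against 6.85, 6.87 and 6.86 in wild type. RNA integrity of these libraries is not given in the labels, and its part in the falls was not tested. The 28 falls became 6 without double mutant 1, 18, 17 and 8 without prkdc mutants 1, 2 and 3, and 5 in the fit of the 6 libraries alone.

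Vessel genes fell in part. Of 21 endothelial genes tested, 5 fell (23.8%, beside 6.86% of all genes), with a median of -0.51. The receptor gene kdr, for vascular endothelial growth factor, was at 33.3, 37.3 and 51.5 CPM in double mutants 1 to 3, against 137, 204 and 203 CPM in prkdc mutants 1 to 3. The groups were far apart (-2.16 ± 0.24, adjusted p = 0.00419), and the call held in all 12 fits without 1 library. The others were vwf, which encodes von Willebrand factor (-1.31), the junction gene cdh5 (-1.08), sox18 (-1.04) and kdrl (-0.58). Without double mutant 1 and without prkdc mutant 3, 1 of the 5 falls was called in each case, and 3 were without double mutant 3, prkdc mutants 1 or 2, or wild type 2 or 3.

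Each kidney list held 1 call. Of 22 proximal tubule genes, 1 fell (4.55%, beside 6.86% of all genes). This was the organic cation transporter gene slc22a2 (1031, 1283 and 1767 CPM in double mutants and 2715, 5212 and 2883 CPM in prkdc mutants). Its log2 fold change was -1.41 ± 0.38 (adjusted p = 0.0349, edgeR), and the median of the list was 0.05. The list's mean log2 CPM was 7.64, 8.16 and 7.80 in double mutants, against 7.66, 8.21 and 7.77 in prkdc mutants. Of 12 distal tubule and nephron genes, 1 rose (8.33%, beside 7.93% of all genes). This was slc12a3, the thiazide-sensitive salt transporter (1023, 992 and 500.4 CPM in double mutants and 354, 257 and 189 CPM in prkdc mutants). Its log2 fold change was 1.65 ± 0.37 (adjusted p = 0.0202, edgeR). It also rose in il2rga mutants over wild type (1.61 ± 0.37, adjusted p = 0.0301). Of 7 podocyte genes, plce1 fell (-0.99 ± 0.23, adjusted p = 0.0233), which is 14.3% of the list beside 6.86% of all genes. All 7 fold changes were negative, with a median of -0.68. In 4 of the 7, all double mutant libraries lay below all prkdc mutant ones, beside 17.2% of all genes.

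**Figure D4:**
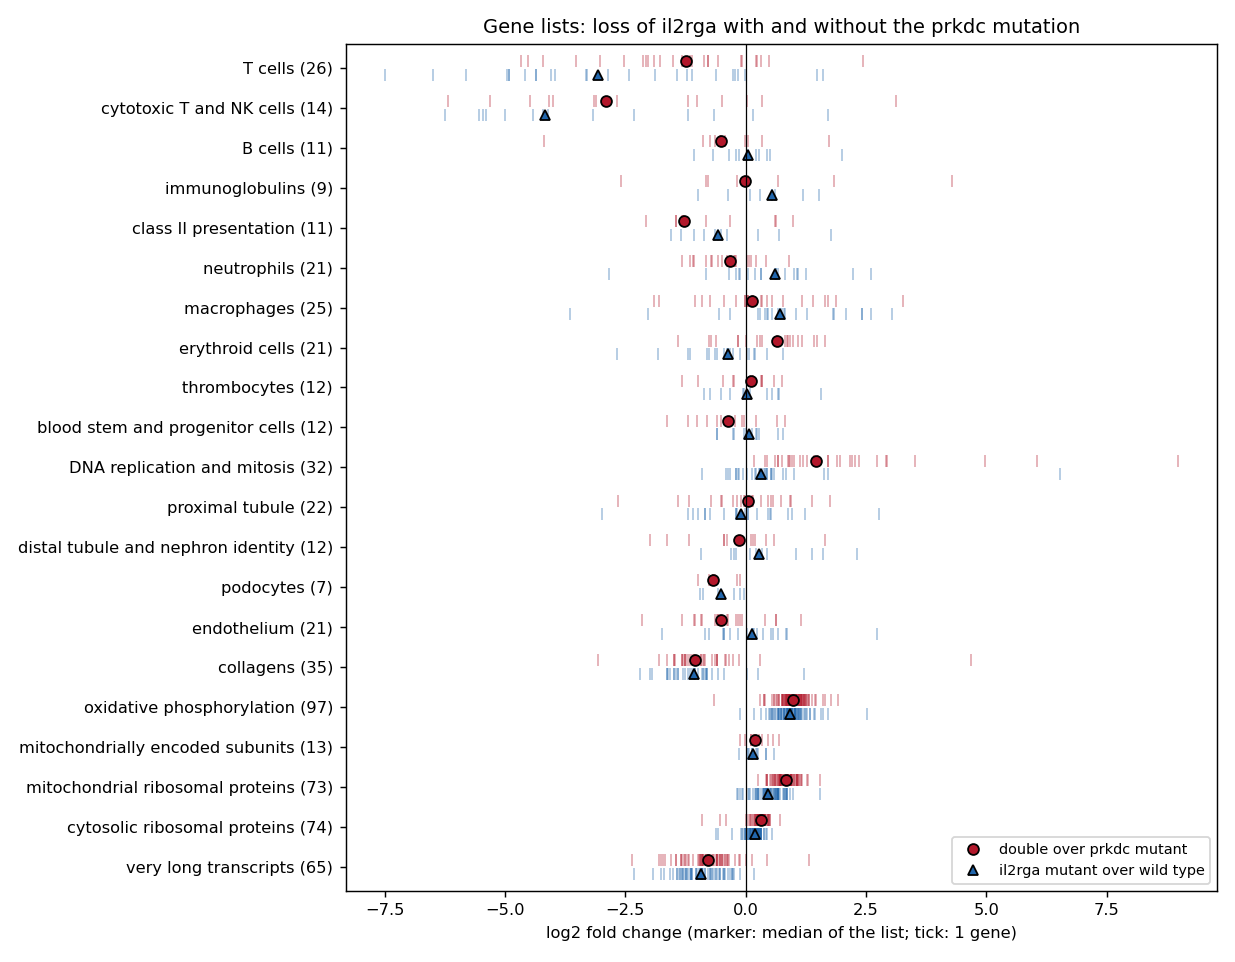
Log2 fold changes of the genes of 21 lists, with double over prkdc mutants as circles above and il2rga mutant over wild type as triangles below; large markers are list medians, ticks are single genes, and the number of tested genes follows each name. Medians of the cytotoxic and T cell lists lie left of 0 in both comparisons, and that of nuclear oxidative phosphorylation genes right of 0 in both. DNA replication genes lie mostly right of 0 for double over prkdc mutants.

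Of 40 liver plasma protein genes tested, 26 rose in double mutants (65.0%, beside 7.93% of all genes), with a median of 6.53. The fibrinogen gene fga, at 2015, 373 and 44 CPM in double mutants 1 to 3, against 0.687, 1.2 and 0.48 CPM in prkdc mutants 1 to 3, showed the gradient over the double mutants (9.97 ± 2.26, adjusted p = 0.0234). The inhibitor gene fetub was at 298, 87 and 126 CPM in double mutants 1 to 3, against 2.4, 2.18 and 1.68 CPM in prkdc mutants 1 to 3 (6.34 ± 1.13, adjusted p = 0.0115). The fatty acid binding gene fabp10a (2.86), the iron oxidase gene cp (3.91), the complement gene c9 (8.30), itih2 and the fibrinogen gene fgg (10.12) rose as well. Double mutant 1 was the highest for both fga and fetub and all double mutants were above all prkdc mutants. The list's mean log2 CPM was 7.67, 6.03 and 4.91 in double mutants, against 1.89, 1.77 and 1.35 in prkdc mutants, and 5.50, 6.56 and 1.92 in il2rga mutants, against 2.52, 1.68 and 1.59 in wild type. The 26 rises became 3 without double mutant 1, and 7, 2 and 0 without prkdc mutants 1, 2 and 3.

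Genes of the egg coat and oocyte followed in double mutants 1 and 2. Of 31 tested, 14 rose (45.2%, beside 7.93% of all genes), with a median of 6.86, or 6.47 with the 2 genes at 0 counts set to their bound. A gene could pass the filter through the libraries where it was high, so these values describe the tested genes only. In the 6 libraries alone, 19 genes of the list were tested, with a median of 6.45. The zona pellucida gene zp3c was at 211, 55.7 and 0.916 CPM in double mutants 1 to 3, against 0.343, 0 and 0.12 CPM in prkdc mutants 1 to 3, and double mutant 3 was close to the prkdc mutants (9.05 ± 2.31, adjusted p = 0.0319). The germ cell gene nanos3 had 201 and 1 counts in double and prkdc mutants, a ratio of 208 (95% counting interval 36.9 to 8261, adjusted p = 0.0164). The other members of smallest p were the oocyte growth factor gene bmp15, at least 109-fold higher against 0 counts in prkdc mutants, and the egg coat genes zp2l2 (398 and 2 counts, ratio 206, 95% counting interval 56.7 to 1707) and zp3d.1, whose libraries overlapped. Of 8 vitellogenins, the yolk precursors made by liver, 0 were called by edgeR and DESeq2, with 4 at an unadjusted p below 0.05; vtg1 was at 929, 12.7 and 0 CPM in double mutants and 0.458, 0.109 and 5.52 CPM in prkdc mutants, high in double mutant 1 alone. The steroid synthesis genes cyp17a1 (54.6, 14.4 and 0.916 CPM in double mutants and 0.343, 0.436 and 0.12 CPM in prkdc mutants) and hsd3b2 (12.6, 3.0 and 0.305 CPM in double mutants and 0, 0.109 and 0 CPM in prkdc mutants) rose too, and again double mutant 3 was the lowest of its group. They were 2 of 6 steroid synthesis genes tested (33.3%, beside 7.93% of all genes). Among 6 genes of intestine, 3 rose (50.0%, beside 7.93% of all genes): apoa4b.1 (11, 5.6 and 12.1 CPM in double mutants and 0.229, 0.218 and 0.12 CPM in prkdc mutants), lgals2b (5.22) and apoa4a (3.31). Of 13 exocrine pancreas and 10 skeletal muscle genes, edgeR and DESeq2 called 0, with 2 and 0 at an unadjusted p below 0.05; their most abundant members were a gene with the symbol cpa1 (361, 422 and 323 CPM in double mutants and 493, 289 and 498 CPM in prkdc mutants) and actc1b (15.7, 234 and 210.0 CPM in double mutants and 87.6, 218 and 5.64 CPM in prkdc mutants). Of 9 testis genes, 1 fell (11.1%, beside 6.86% of all genes). This was dnah9, which encodes a dynein heavy chain of cilia (7.27, 7.6 and 9.01 CPM in double mutants and 26.8, 64.1 and 31.8 CPM in prkdc mutants). Its log2 fold change was -2.36 ± 0.48 (adjusted p = 0.0152, edgeR). The 14 egg coat rises were 0 without double mutant 1, 27 without double mutant 3, 1 without prkdc mutant 1 and 0 without prkdc mutants 2 or 3, and 8 or 9 without il2rga mutants 1 or 2 or wild type 2 or 3. Whether RNA of neighbouring organs entered the dissected kidneys was not tested.

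**Figure D5:**
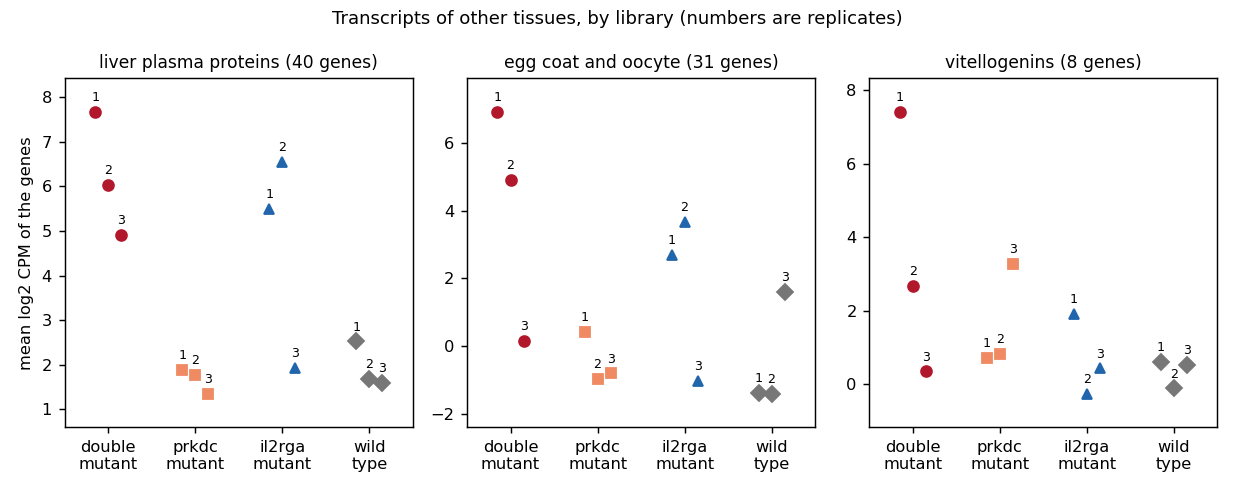
Mean log2 CPM of liver plasma protein, egg coat and vitellogenin genes in each library, with numbers for replicates. Double mutants 1 and 2 are high for liver and egg coat genes, double mutant 3 is high for liver genes but not for egg coat genes, and il2rga mutants 1 and 2 are also high for both of these lists.

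The 12 largest rises included liver and class I genes already given. They also held serpina1l, which encodes a protease inhibitor (525, 129 and 35.4 CPM in double mutants and 0.343, 0.327 and 0 CPM in prkdc mutants; 9.88 ± 2.25), the pentraxin gene apcs (1956 and 1 counts, ratio 2025, 95% counting interval 363 to 80034), and itih3a.1, tmem144, selenop2 and itln3. The prkdc mutants had 0 counts for each of these last 4 genes, which were at least 179-fold, 231-fold, 381-fold and 188-fold higher in double mutants. For serpina1l, apcs, itih3a.1, tmem144 and selenop2, double mutant 1 was the highest and double mutant 3 the lowest of its group.

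Outside the lists, the largest falls were partly carried by single prkdc mutants. The ferlin-family gene fer1l4 was at 0.455, 0.30 and 0 CPM in double mutants 1 to 3, against 1.03, 80.9 and 44.7 CPM in prkdc mutants 1 to 3, so prkdc mutants 2 and 3 were high and prkdc mutant 1 was near the double mutants (-7.21 ± 1.36, adjusted p = 0.0135, edgeR). The epithelial cornified envelope genes scel (0.796, 1.0 and 0.458 CPM in double mutants and 1.72, 68.3 and 17.5 CPM in prkdc mutants) and evpla (0.227, 0.30 and 0 CPM in double mutants and 0.687, 26.9 and 3.12 CPM in prkdc mutants), the sphingolipid synthesis gene sptssb (0.227, 0.30 and 0.153 CPM in double mutants and 1.03, 75.1 and 24 CPM in prkdc mutants) and the calpain gene capn9 (0.227, 1.1 and 0.305 CPM in double mutants and 1.14, 31.2 and 9.35 CPM in prkdc mutants) had the same order of libraries. Wild type and il2rga mutant libraries were low for these genes; fer1l4 was at 0.63, 1.5 and 1.06 CPM in il2rga mutants and 1.08, 0.609 and 0.969 CPM in wild type. By contrast c1qtnf13 was spread over the group, with 0, 0 and 0 CPM in double mutants and 2.29, 1.64 and 4.2 CPM in prkdc mutants, at least 22.5-fold lower in double mutants (adjusted p = 0.0139). The tyrosine breakdown gene hpd had 2 and 62 counts in double and prkdc mutants, a ratio of 29.9 (95% counting interval 7.95 to 253, adjusted p = 0.0191), and the muscle gene trdn had 2 and 58 counts, a ratio of 28 (95% counting interval 7.41 to 237).

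The effect of il2rga loss with prkdc mutated was then set beside its effect with prkdc intact. In il2rga mutants against wild type, 1066 genes were called (5.80%), of which 407 (2.22%) rose and 659 (3.59%) fell. Genes called in both comparisons numbered 683, all in the same direction, which is 25.1% of the 2717 and 64.1% of the 1066. Of the 2717, 2621 (96.5%) had the same sign in il2rga mutants over wild type, beside 74.3% of all genes. Liver plasma protein genes took 0.795%, 1.01% and 0.280% of counts in il2rga mutants 1 to 3, against 0.327%, 0.255% and 0.201% in wild type 1 to 3. The part of such transcripts in the shared signs was not tested. The test of the difference between the effects, double minus prkdc less il2rga minus wild type, called 0 genes in edgeR, with 1123 at an unadjusted p below 0.05 where chance gives 918.5, and 49 in DESeq2. A missing call does not show that the effects were equal.

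Some lists differed in size between the comparisons. Egg coat genes had a median of 6.86 in double over prkdc mutants and of 2.36 in il2rga mutants over wild type. Liver genes had 6.53 and 4.30, and lymphoid lists differed as well. T cell genes had a median of -1.24 in double over prkdc mutants and of -3.07 in il2rga mutants over wild type. In the latter comparison 14 of 26 fell, beside 3.59% of all genes. Cytotoxic genes had -2.89 and -4.16 (-1.94 and -3.64 with genes at 0 counts set to their bound). Of the 14, 10 fell in il2rga mutants over wild type, beside the same 3.59%. The mean log2 CPM of the T cell list was 0.87, 0.74 and 0.34 in double mutants, against 1.48, 2.01 and 1.59 in prkdc mutants, and 0.68, 0.80 and 0.33 in il2rga mutants, against 2.69, 2.67 and 3.33 in wild type. Both groups without il2rga thus reached like levels, and prkdc mutants lay between them and wild type. Of single genes, the smallest interaction p values belonged to spink2.2, gzma, tcf7 and the inflammasome-family gene nlrp12l, with an adjusted p of 0.788 for each. The T cell factor gene tcf7 had a log2 fold change of 0.33 ± 0.55 in double over prkdc mutants and of -3.96 ± 0.57 in il2rga mutants over wild type. The protease inhibitor gene spink2.2 had 116, 69.7 and 71.9 CPM in double mutants and 29.1, 14.3 and 29 CPM in prkdc mutants, and 44.8, 19.9 and 11.5 CPM in il2rga mutants and 360.0, 164 and 89.2 CPM in wild type, so that it was higher in double mutants and lower in il2rga mutants than in their comparison groups. For nlrp12l the libraries held 7.16, 7.2 and 4.58 CPM in double mutants and 21.2, 19.2 and 22.4 CPM in prkdc mutants, and 8.19, 10.4 and 14.5 CPM in il2rga mutants and 11.3, 8.04 and 9.58 CPM in wild type.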

How the data were processed

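The file holds gene counts deposited by the authors, 1 column per library and 32105 Ensembl genes, with no normalization. Per the labels' protocols, 100 ng of RNA per animal went through poly(A) selection, a directional kit, 15 PCR cycles and paired reads of 50 bp. Per the submitters' processing notes, STAR, Picard, featureCounts and the GRCz10 build were used. Tool versions, annotation release, strand setting and duplicate handling: not given in the sources used here.

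Counts were filtered with filterByExpr and scaled by TMM. All 12 libraries were fitted with 4 group means, sharing 1 estimate of spread, by the quasi-likelihood test of edgeR 4.0.16 (limma 3.58.1, R 4.3.3). P-values were adjusted by Benjamini-Hochberg over 18370 genes. Values of log2 CPM use a prior count of 2, while fold changes use the default setting of edgeR's fit. Where a group had 0 counts, a bound was computed from a floor of 3 counts over the group; with 1 to 3 counts, an exact 95% interval of the ratio. Both cover counting error only. Lists are described by calls and medians, and list levels are means of log2 CPM. The model was tested on simulated data: of genes changed by 2 log2 units, 17 of 34 rises and 16 of 32 falls were called, and of 17831 unchanged genes 3 were. Of genes changed by 1 log2 unit, 0 of 34 rises and 1 of 33 falls were called. The simulation changed far fewer genes than were called in the data, which moves the adjusted p, so these shares do not describe the real fit.

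Symbols came from a gene name table and matched 26269 genes, of which 2592 share a symbol; gene order came from RefSeq on GRCz12tu. Counts of replicate libraries differed by more than sampling noise. Replicates came from separate animals. The labels do not give a batch. Alternatives were DESeq2 1.42.0, limma voom, other filters and scalings, a replicate block, a fit of the 6 libraries alone, each library left out, and settings added after the data were seen. The comparison and the lists were chosen with earlier results of these data known, 6 of 44 lists after these values were seen. By rule the text names the 12 largest called changes each way with no overlap between the groups, a mean of at least 1 CPM and a symbol that is not a clone name, up to 5 called members per list by smallest p, the most abundant member of a list with no call, and 4 genes by interaction p. Members beyond these, such as nkl.4, faslg, prf1.6, lck, lat, runx3, ccr7, cd8a, il7r, jak3, ighm, b2ml and mki67, were named after their values were seen.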

Additional observations from a re-analysis of the deposited data

How the results depend on the processing

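The 2717 genes called in double over prkdc mutants numbered 4176 with DESeq2, 236 in the fit of the 6 libraries alone, and 382 to 2946 with 1 library left out. Adding the liver list's level as a covariate left 0 called by edgeR (3231 at an unadjusted p below 0.05). That level was 4.91 to 7.67 in double mutants and 1.35 to 1.89 in prkdc mutants. The covariate thus ran nearly with the genotype, and this fit cannot separate them. Leaving out double mutants 1 and 2 left 0 called (4534 at an unadjusted p below 0.05), and so did leaving out in addition the liver, vitellogenin and egg coat genes before scaling (4530). Without these libraries the median of all genes was -0.12, against 0.03. Both of the settings without double mutants 1 and 2 were added after the data were seen; the lone double mutant was assumed to vary like the other groups, so these counts of 0 say nothing about stability. The 1456 rises were 935 with no filter on low counts, 2342 with DESeq2, 94 in the 6 libraries alone, 0 under each of the 3 settings that left none called, and 103 to 1671 with 1 library left out. The 1261 falls were 142 in the 6 libraries alone, 0 under those 3 settings, and 205 to 1275 with 1 library left out. The share of rises among calls, 53.6%, was 39.8% in the 6 libraries alone, and 41.3%, 37.2% and 25.8% without prkdc mutants 1, 2 and 3.

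Of the cytotoxic list, 7 falls were 3 in the 6 libraries alone, 0 under those 3 settings and 3 to 7 with 1 library left out. Of the T cell list, 8 falls were 3 with voom, 1 in the 6 libraries alone, 0 under those 3 settings and 2 to 8 with 1 library left out. Of the liver list, 26 rises were 14 with voom, 11 in the 6 libraries alone, 0 with the liver covariate, 0 without double mutants 1 and 2, and 0 to 30 with 1 library left out. In il2rga mutants over wild type, 1066 calls were 2400 with DESeq2, 2626 with voom, 13 with the liver covariate and 160 to 1565 with 1 library left out. The interaction called 49 genes with DESeq2, 2 under each of the settings without double mutants 1 and 2 (mhc1uba and zgc:171534), and 0 to 1 with 1 library left out, the 1 being fer1l4 without prkdc mutant 1. The liver covariate turned the sign of fga (-0.43), fgg (-0.41), itln3 (-0.84), zp2l2 (-1.55), hsd3b2 (-0.51) and cyp17a1 (-1.74). It was the mean level of the liver list itself, to which fga and fgg belong. The loss of the liver rises under it was therefore built into the fit. Leaving out double mutants 1 and 2 turned that of mhc1uba (-0.23, and -0.22 with the 3 lists left out too). The causes were not tested.

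Of the egg coat list, 14 rises were 5 with no filter on low counts, 5 with voom, 23 with DESeq2 and 0 in the 6 libraries alone (edgeR). Of the class I list, 5 rises were 1 with no filter, and 3 both with voom and in the 6 libraries alone.

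A replicate block called 1867 genes, with 920 rises. It moved T cell falls to 4, gamma chain receptor and JAK-STAT falls to 2, endothelial falls to 3, class I rises to 1, egg coat rises to 3 and vacuolar pump rises to 6, and 34 of 139 named genes lost their call. Deviations of same-numbered double and prkdc mutants had correlations of 0.0399, 0.260 and 0.0953. Double mutants 1 and 2 were each closest to their own number, while double mutant 3 was as close to prkdc mutant 1 (0.0955). With correlations under 0.1 in 2 of the 3 pairs and no label that ties the numbers to a shared source, pairing was not established. Depth limits which genes could be tested: 28 of the 42 cytotoxic genes had too few counts.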

Other observations

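The mitochondrial ribosome translates the subunits encoded in the mitochondrial genome. Of 73 of its genes tested, 47 rose in double mutants (64.4%, beside 7.93% of all genes) with a median log2 fold change of 0.83. The mean log2 CPM of the list was 5.24, 5.17 and 5.51 in double mutants, against 4.72, 4.22 and 4.48 in prkdc mutants. The gene mrps18a was at 54.4, 48.9 and 52.8 CPM in double mutants and 28.5, 18.3 and 23.5 CPM in prkdc mutants (1.15 ± 0.20, adjusted p = 0.0101, edgeR), and mrps9 (0.94), mrpl18 (1.3), mrpl32 (0.85) and mrpl4 (0.89) rose with it. In il2rga mutants over wild type 8 of the 73 rose, beside 2.22% of all genes, with a median of 0.47. Cytosolic ribosomal protein genes had 1 rise in 74, rpl29 (1.35%, beside 7.93% of all genes), and a median of 0.33 in double over prkdc mutants. Of their fold changes, 71 were positive and 3 negative. In 33 of the 74, all double mutant libraries lay above all prkdc mutant ones, beside 16.0% of all genes. In 2 they lay below, beside 17.2%. The 47 rises became 4 without double mutant 1, 23 without double mutant 3, and 7 and 1 without prkdc mutants 2 and 3. They were 31 and 30 without prkdc mutant 1 and wild type 3. The lists of this paragraph and the next, other than cytosolic ribosomal proteins and p53 targets, were drawn up after the data had been seen.

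The vacuolar proton pump, which acidifies lysosomes and is abundant in kidney intercalated cells, had 10 rises among 25 genes (40.0%, beside 7.93% of all genes) and a median of 0.58. Of its members, atp6v1f was at 98.2, 111 and 69.8 CPM in double mutants and 52.3, 44.3 and 44.6 CPM in prkdc mutants (0.98 ± 0.19, adjusted p = 0.0143, edgeR). A gene with the symbol atp6v1c1 (1.49), atp6v1e1b (0.96), atp6v1d (1.1) and atp6v1g1 (0.87) rose too. The 10 rises became 1 without double mutant 1, 6 without double mutant 2, and 5 and 1 without prkdc mutants 1 and 3; without wild type 2 or 3 they were 6. Proteasome core and cap genes had 7 rises among 39 (17.9%, beside 7.93%) and a median of 0.48, with psma2a (0.76), psmb3 (0.71), psma2 (0.59) and both genes with the symbol psma6 among them. Collagen genes had 8 falls among 35 (22.9%, beside 6.86% of all genes) and a median of -1.05. The basement membrane collagen gene col4a2 was at 24.7, 48.1 and 37.7 CPM in double mutants and 133, 102 and 107 CPM in prkdc mutants (-1.63 ± 0.28, adjusted p = 0.00959), with no overlap between the groups, and its partner in the same collagen trimer, col4a1, fell as well (-1.13 ± 0.23, adjusted p = 0.0148). So did col4a3 (-1.48), col4a4 (-1.48) and col16a1 (-1.49). The 8 falls became 1 and 5 without double mutants 1 and 2, 17 without double mutant 3, and 3, 4 and 4 without prkdc mutants 1, 2 and 3. Of 16 targets of p53, 3 rose (18.8%, beside 7.93%): the ribosomal-like gene rps27l (1.21), the cell cycle inhibitor gene cdkn1a (1.64) and btg2 (1.38), of which btg2 had overlapping libraries.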
